A study of Mus musculus with 12 samples.

Results

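The 9 mouse genes of citrulline, arginine and polyamine synthesis examined here, Nags, Cps1, Otc, Aldh18a1, Oat, Arg2, Arg1, Ass1 and Odc1, were followed through intestinal epithelium of 2 regions before and after culture. They were taken by gene symbol from tables of 55487 genes, and all 9 were found and passed the filter on low counts. RNA sequencing covered 12 libraries in 4 groups of 3, all from C57BL/6 mice with no transgene, deletion or screened oncology drug named. SI crypts and LI crypts were freshly isolated from the small intestine (SI) and the large intestine (LI), each group from 3 mice. The culture methods took LI from the same mice as SI, so the regions may share animals. Which libraries share a mouse is not given. SI monolayers and LI monolayers were crypts of the same regions plated as a flat layer on Matrigel and cultured for 24 h in medium with Wnt3a, EGF, Noggin and R-spondin-1, each library being a pool of wells, so that their spread is one between pools. Before this medium, the crypts were plated in a seeding medium that held small-molecule compounds beside growth factors. The methods, which describe the cultures, used young adult mice of either sex, took SI from jejunum released with EDTA alone and LI by collagenase, dispase and DNase digestion before EDTA, so that region and isolation cannot be told apart. The LI digestion also held a small-molecule compound of the seeding medium, which is not named for the SI step.

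In mammals the small intestinal epithelium is a main source of circulating citrulline. Mitochondrial enzymes turn glutamate into pyrroline-5-carboxylate (P5C; Aldh18a1) and then ornithine (Oat), and join ornithine to carbamoyl phosphate (Otc). The carbamoyl phosphate comes from Cps1, which works only with N-acetylglutamate, the product of Nags. Citrulline becomes arginine through cytosolic Ass1 and its partner Asl, chiefly in the kidney of the adult. Arginases return arginine to ornithine, Arg1 in the cytosol and Arg2 in mitochondria, and Odc1 decarboxylates ornithine to putrescine, the first step to the polyamines that dividing cells require.

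The 6 genes of the mitochondrial enzymes (Nags, Cps1, Otc, Aldh18a1, Oat and Arg2) were higher in SI than in LI, both in crypts and in monolayers, with folds of 2.63 to 78.8. All but Aldh18a1 were also lower after 24 h in culture in both regions. The genes of the cytosolic enzymes had other patterns: Odc1 was higher in monolayers, Ass1 was highest in LI crypts, and Arg1 was low in every library.

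Promoter windows are shown for genes whose values moved in the same direction and for a gene that moved otherwise. Windows of 300 bases, 250 before to 50 after the gene's start, were taken from RefSeq on GRCm38.p6. They matched 6 of the 9 genes by symbol (not Cps1, Arg1 and Arg2). For Odc1 and Ass1 this start lies downstream of the gene start given below, so their windows begin less than 250 bases before the latter. Shown are Otc and Nags, which were high in SI and fell in culture in both regions, and Odc1, which did not follow that pattern. Capitals mark exact matches, on either strand, to GATAAG (the GATA motif) in Otc and to GGGCGG (the GC box, written CCGCCC where it lies on the other strand) in Nags and Odc1. The windows are chrX:10252055-10252354 for Otc, chr11:102145263-102145562 for Nags and chr12:17544623-17544922 for Odc1, all on the plus strand.
Otc: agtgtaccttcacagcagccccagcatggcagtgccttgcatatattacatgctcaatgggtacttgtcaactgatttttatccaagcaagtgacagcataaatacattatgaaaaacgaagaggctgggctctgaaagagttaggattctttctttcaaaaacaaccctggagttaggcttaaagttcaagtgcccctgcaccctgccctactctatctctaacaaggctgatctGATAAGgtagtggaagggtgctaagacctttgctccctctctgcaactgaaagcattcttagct
Nags: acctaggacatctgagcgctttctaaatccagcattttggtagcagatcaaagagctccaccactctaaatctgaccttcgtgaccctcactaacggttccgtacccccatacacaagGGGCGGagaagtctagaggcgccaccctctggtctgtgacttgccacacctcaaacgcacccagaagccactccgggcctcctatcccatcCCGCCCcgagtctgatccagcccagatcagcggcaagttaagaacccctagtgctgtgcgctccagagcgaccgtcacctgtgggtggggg
Odc1: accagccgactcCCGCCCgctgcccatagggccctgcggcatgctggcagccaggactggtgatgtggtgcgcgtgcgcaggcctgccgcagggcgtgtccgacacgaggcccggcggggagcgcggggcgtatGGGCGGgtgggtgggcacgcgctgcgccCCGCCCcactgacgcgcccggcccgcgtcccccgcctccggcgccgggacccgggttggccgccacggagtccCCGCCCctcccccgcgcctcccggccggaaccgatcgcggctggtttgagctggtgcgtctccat

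The Otc window had the lowest GC content of the 6, at 44.3%, and the Odc1 window the highest, at 78.0%, against a median of 52.7% over all 32851 windows. Nags stood at 57.7%, Aldh18a1 at 58.3%, Oat at 61.7% and Ass1 at 74.0%. Odc1 held 4 GC boxes, Nags and Oat 2 each (those of Oat next to each other), Ass1 and Aldh18a1 1 each and Otc none, while 35.7% of all windows held at least 1. The E-box CACGTG occurred once in Aldh18a1 and once in Ass1 and is held by 7.15% of all windows, and GATAAG occurred once, in Otc, and is held by 7.44%. Neither TATAAA (13.6% of all windows) nor CAAAGTCCA (0.475%, an HNF4 motif) occurred in the 6 windows. The motifs were chosen after the windows were seen, and a match is a description of the letters only.

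The libraries held 59016196 to 76216530 counts, so that 3 counts correspond to 0.0394 to 0.0508 CPM (counts scaled to a library of 1e+06). Values per library below are the authors' normalized counts, that is counts divided by 1 size factor per library. A gene was called changed at a Benjamini-Hochberg adjusted p under 0.05 in edgeR's quasi-likelihood test over 19581 genes together with a log2 fold change of at least 1 in size. Since these are bulk samples, fewer cells of a type and less RNA per cell cannot be told apart. The 8 epithelial markers were present in all 12 libraries, with summed normalized counts of 984371 to 1865150, and the 12 markers of macrophages and other immune cells summed to 4818 to 11290. In LI monolayers Cd14 alone made up 8110 to 8262 of an immune sum of 8669 to 8803, while Ptprc stood at 43.5 to 66.6. The 12 mesenchymal markers summed to 1470 to 3304 in SI crypts and 1541 to 2221 in SI monolayers. Their sums were 3559 to 5452 in LI crypts and 4402 to 5972 in LI monolayers.

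In SI, 6 of the 9 genes fell in monolayers against crypts and none rose, where 26.1% of all tested genes were called, 16.4% lower and 9.71% higher. The median log2 fold change was -1.39 over the 9 genes and -0.05 over all tested genes. In LI, 6 fell and 1, Odc1, rose, where 38.0% of all tested genes were called, 23.5% lower and 14.5% higher. The median was -1.94 over the 9 genes and -0.05 over all tested genes. The libraries of crypts and monolayers did not overlap for 8 of the 9 genes in SI, where this held for 66.4% of all tested genes, and for 8 of 9 in LI, where it held for 73.1%.

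**Figure D1:**
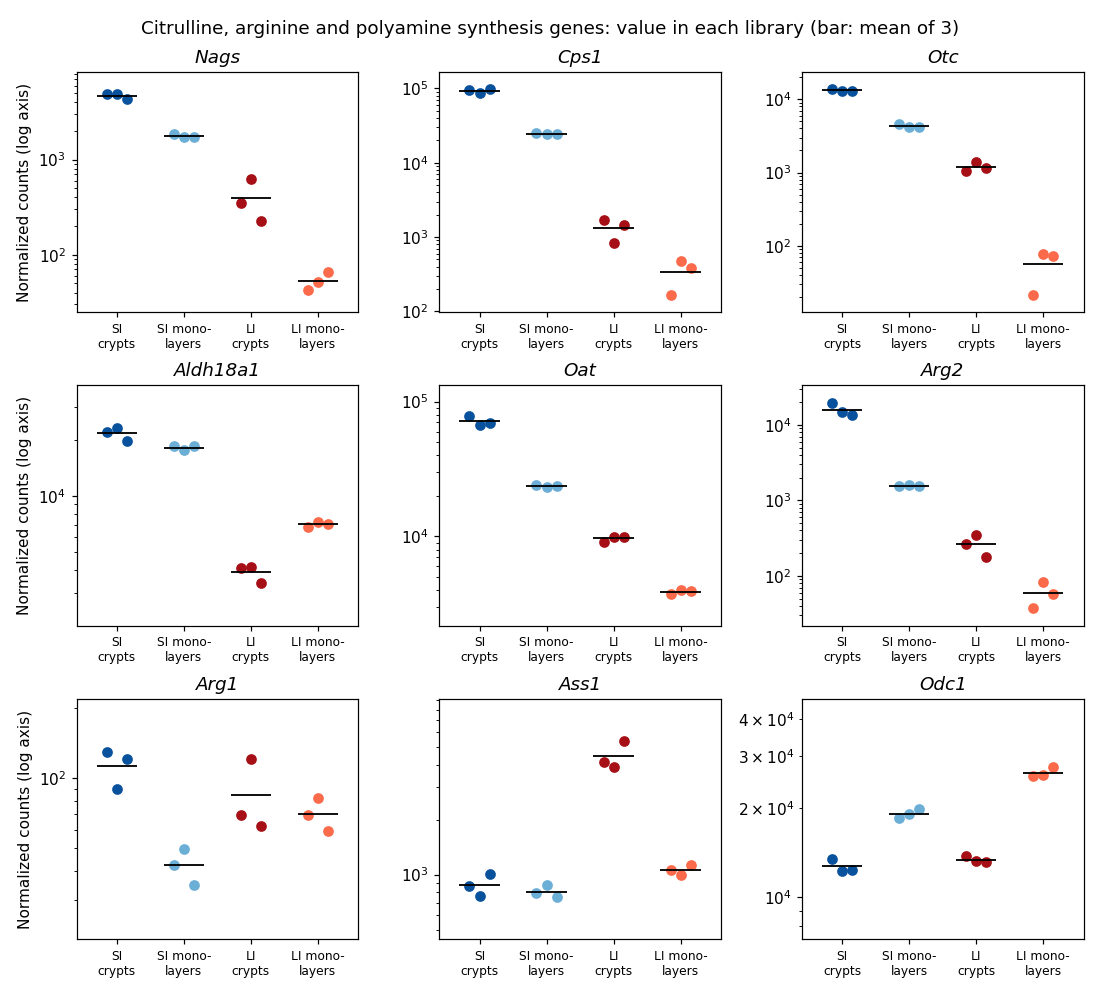
Normalized counts of the 9 genes (log axis, scale differing between panels) in each of the 12 libraries by group, with a bar at the mean of 3 libraries. Nags, Cps1, Otc, Oat and Arg2 step down from SI crypts to SI monolayers, LI crypts and LI monolayers without overlap, Odc1 is highest in LI monolayers, and Ass1 stands apart in LI crypts, at 3894 to 5384.

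Cps1, carbamoyl phosphate synthetase (ENSMUSG00000025991.8, GRCm38 chr1:67123026-67231259, plus strand), was one of the most abundant transcripts of the set in SI. Its normalized counts in SI crypts were 93576, 86412 and 97861, and in SI monolayers 24768, 24178 and 23975. In LI crypts they were 1688, 830.2 and 1471, and in LI monolayers 167, 472 and 378. Every SI library lay far above every LI library, and crypts lay above monolayers within each region without overlap. Cps1 fell 3.72-fold in SI monolayers (log2 fold change -1.90 ± 0.33 SE, edgeR adjusted p = 0.00106) and 3.83-fold in LI monolayers (-1.94 ± 0.36, edgeR adjusted p = 0.00125). The 2 changes differed by 0.04 ± 0.48 on the log2 scale (95% interval -0.90 to 0.98, edgeR adjusted p = 0.963), an interval too wide to call them alike. This interval and those below take the error as normal, which makes them too narrow.

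Otc, ornithine transcarbamylase (ENSMUSG00000031173.13, chrX:10252305-10321024, plus strand), forms citrulline. It was read at 13935, 12895 and 12816 normalized counts in SI crypts and at 4578, 4232 and 4139 in SI monolayers. LI crypts held 1065, 1382 and 1139 and LI monolayers 21.2, 76.9 and 72.1, which rest on 22, 67 and 73 counts. No 2 groups overlapped, and the step from LI crypts to LI monolayers was the largest fall in culture of the 9 genes. Otc fell 2.99-fold in SI monolayers (log2 -1.58 ± 0.20, edgeR adjusted p = 8.16e-05) and 20.7-fold in LI monolayers (-4.37 ± 0.28, edgeR adjusted p = 3.36e-07). The difference between these changes was itself called, at 2.79 ± 0.35 on the log2 scale (edgeR adjusted p = 0.000137).

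Nags, N-acetylglutamate synthase (ENSMUSG00000048217.11, chr11:102145513-102149477, plus strand), makes the cofactor of Cps1. SI crypts held 4925, 4924 and 4314 normalized counts and SI monolayers 1851, 1719.8 and 1744. LI crypts spread more widely, at 347, 619 and 224, and LI monolayers stood at 42.4, 51.65 and 66.2. The 4 groups kept the order of Cps1 and Otc and did not overlap. Nags fell 2.60-fold in SI monolayers (log2 -1.38 ± 0.27, edgeR adjusted p = 0.0019) and 7.17-fold in LI monolayers (-2.84 ± 0.39, edgeR adjusted p = 0.00012). Its exons share 443 bases with the antisense gene Gm11586, which had 100 counts over the 12 libraries, and whether counting used strand is not given in the sources used here.

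Cps1, Otc and Nags did not keep a fixed proportion to each other. Per kilobase of exon, the ratio of Cps1 to Otc was 5.12 to 5.83 in SI crypts and 4.13 to 4.42 in SI monolayers. In LI crypts it was 0.459 to 1.21, so that by this measure Otc stood close to or above Cps1 there. Lengths here and below join all annotated exons of a gene (5555 bases for Cps1, 4241 for Otc). Comparisons between genes therefore depend on which exons are annotated, and the transcripts in use were not tested. In LI monolayers the ratio of Cps1 to Otc was 4.01 to 6.00, which overlaps with the SI libraries. The ratio of Otc to Nags was 1.75 to 1.99 in SI crypts, 1.59 to 1.66 in SI monolayers and 1.49 to 3.40 in LI crypts, and in LI monolayers it was lowest, at 0.335 to 0.996.

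Aldh18a1, the synthase of P5C (ENSMUSG00000025007.13, chr19:40550257-40588463, minus strand), behaved unlike the other mitochondrial genes in culture. SI crypts held 22097, 23076 and 19796 normalized counts and SI monolayers 18447, 17551 and 18571. LI crypts held 4127, 4158 and 3426 and LI monolayers 6809, 7282 and 7112. Monolayers thus lay below crypts in SI and above crypts in LI, without overlap in either. Neither change was called, because both were under the fold limit: 1.16-fold lower in SI (log2 -0.22 ± 0.07, edgeR adjusted p = 0.012) and 1.87-fold higher in LI (0.90 ± 0.07, edgeR adjusted p = 6.26e-09). The difference of the 2 changes was called, at -1.12 ± 0.10 (edgeR adjusted p = 1.45e-07).

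Oat, ornithine aminotransferase (ENSMUSG00000030934.9, chr7:132557478-132576398, minus strand), converts P5C and ornithine into each other. Its normalized counts were 77602, 67499 and 69506 in SI crypts and 24005, 23308 and 23778 in SI monolayers. They were 9167, 9961 and 9859 in LI crypts and 3717, 3987 and 3973 in LI monolayers. The replicates were close and the 4 groups did not overlap. Oat fell 2.95-fold in SI monolayers (log2 -1.56 ± 0.06, edgeR adjusted p = 4.1e-12) and 2.40-fold in LI monolayers (-1.27 ± 0.06, edgeR adjusted p = 1.67e-11). The SI fall was larger by 0.29 ± 0.08 on the log2 scale (edgeR adjusted p = 0.00896), which is under the fold limit.

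Arg2, the mitochondrial arginase (ENSMUSG00000021125.6, chr12:79130777-79156301, plus strand), had the largest fall of the set in SI. SI crypts held 19556, 14597 and 13619 normalized counts and SI monolayers 1534, 1606 and 1570.2. LI crypts held 264, 353 and 178 and LI monolayers 37.5, 83.8 and 58.3. The 4 groups did not overlap. Arg2 fell 9.90-fold in SI monolayers (log2 -3.31 ± 0.24, edgeR adjusted p = 2.03e-06) and 4.35-fold in LI monolayers (-2.12 ± 0.34, edgeR adjusted p = 0.000401). The difference of -1.19 ± 0.43 did not pass the test (edgeR adjusted p = 0.0513) but was called without LI crypts replicate 2 (-1.45, edgeR adjusted p = 0.0177) or LI monolayers replicate 1 (-1.33, edgeR adjusted p = 0.0408). Exons of Arg2 share 285 bases with Vti1b on the opposite strand, a gene with 92067 counts over the 12 libraries, and 116 bases with antisense Gm48780. The share of Arg2 counts that came from Vti1b was not tested.

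Arg1, the cytosolic arginase (ENSMUSG00000019987.9, chr10:24915221-24927484, minus strand), is best known from the urea cycle of the liver and from macrophages. It stood at 129, 89.6 and 121 normalized counts in SI crypts and at 42.2, 49.9 and 34.7 in SI monolayers. LI crypts held 69.5, 122 and 62.5 and LI monolayers 69.3, 82.6 and 59.3. SI monolayers were lowest and overlapped with no other group. LI crypts overlapped with both SI crypts and LI monolayers, while SI crypts and LI monolayers did not overlap. Arg1 fell 2.62-fold in SI monolayers (log2 -1.39 ± 0.29, edgeR adjusted p = 0.000697), and in LI the difference was -0.22 ± 0.29 (95% interval -0.78 to 0.34, edgeR adjusted p = 0.512). In SI monolayers, where 26.1% of all tested genes were called, 8 of the 12 immune markers fell and 2 rose. In LI monolayers, where 38.0% were called, 9 of these markers fell and 1 rose. Their part in the Arg1 values was not tested.

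Per kilobase of exon, Arg2 stood 175 to 254 times above Arg1 in SI crypts and 50.3 to 70.7 times above it in SI monolayers. In LI crypts the ratio was 4.44 to 5.92. In LI monolayers it was 0.845 to 1.58, so that both arginase transcripts were then at about the same low level.

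Ass1, argininosuccinate synthase (ENSMUSG00000076441.9, chr2:31470207-31520672, plus strand), takes the step from citrulline towards arginine. Its normalized counts were 863, 766 and 1011 in SI crypts and 789, 872 and 755 in SI monolayers. LI crypts held 4114, 3894 and 5384, and LI monolayers 1059, 996 and 1131. LI crypts lay above every other library, and the other 3 groups were close, SI crypts overlapping with both monolayer groups. Ass1 fell 4.07-fold in LI monolayers (log2 -2.03 ± 0.13, edgeR adjusted p = 6.33e-09), and in SI the difference was -0.09 ± 0.13 (95% interval -0.35 to 0.16, edgeR adjusted p = 0.561). The change differed between the regions by 1.93 ± 0.18 on the log2 scale (edgeR adjusted p = 1.65e-06).

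Odc1, ornithine decarboxylase (ENSMUSG00000011179.8, chr12:17544794-17551505, plus strand), was the only one of the 9 genes called higher in culture in either region. SI crypts held 13518, 12283 and 12380.3 normalized counts and SI monolayers 18485, 19186 and 19958. LI crypts held 13756, 13300.5 and 13189 and LI monolayers 25818, 25895 and 27622. The 2 crypt groups overlapped, SI monolayers lay above both, and LI monolayers lay above all. Odc1 rose 2.04-fold in LI monolayers (log2 1.03 ± 0.05, edgeR adjusted p = 4.46e-11) and was 1.55-fold higher in SI monolayers (0.63 ± 0.05, edgeR adjusted p = 3.29e-08), under the fold limit. The LI value sat on that limit: it was 0.91 with upper quartile scaling, 0.99 with DESeq2 and 0.95 with at least 10 counts required in every library. It was 0.95, 0.96 and 0.95 without SI monolayers replicate 1, 2 or 3 and 0.97, 0.97 and 0.92 without LI monolayers replicate 1, 2 or 3. Relative to the median of all genes it was 0.97 to 1.12 over 20 settings. The 10 markers of proliferating cells had summed counts of 67693 to 71021 in SI crypts and 88329 to 90569 in SI monolayers, and of 54984 to 60422 in LI crypts and 80013 to 85943 in LI monolayers. None of the 10 was called in SI culture, and in LI culture 2 rose and 1 fell, beside 26.1% and 38.0% of all tested genes called. Means of Mki67 (9942 to 8937 in SI, 9835 to 9286 in LI) and Ccnb2 (5231 to 3963, 5733 to 2188) were lower in monolayers, and those of the others were higher. Their part in the Odc1 values was not tested.

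**Figure D2:**
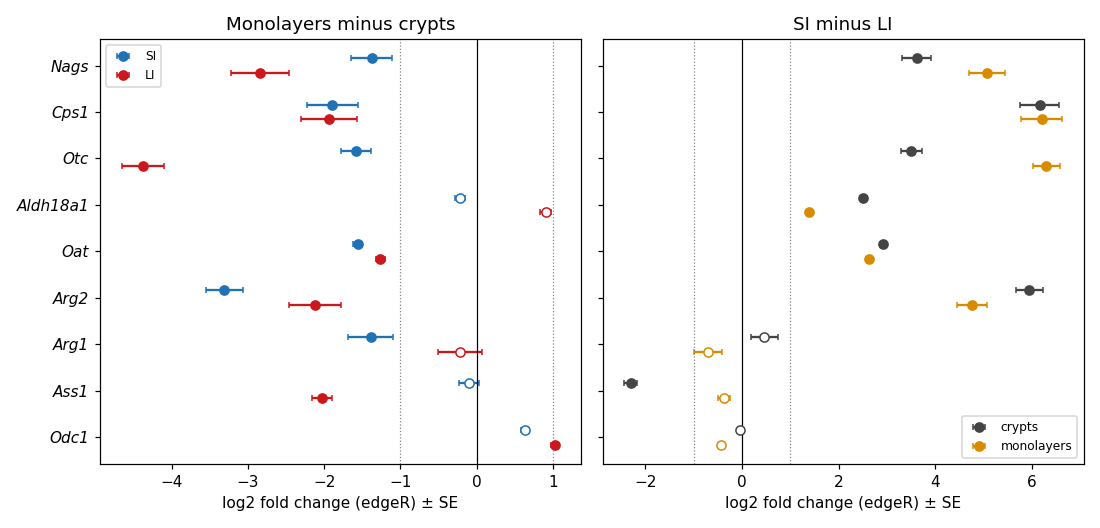
Log2 fold change of each of the 9 genes with its standard error, monolayers against crypts in SI and LI (left) and SI against LI in crypts and monolayers (right), with filled points for called changes and dotted lines at a log2 fold change of 1 in size. Otc, at -4.37, and Nags, at -2.84, fell furthest in LI monolayers, and the 6 mitochondrial genes lie right of the line at 1 in both SI against LI comparisons.

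The test of whether the culture change differed between SI and LI called 5 of the 9 genes, where 20.0% of all tested genes were called, 11.4% with the higher change in SI and 8.51% with the lower. The change was higher in SI, that is less of a fall, for Otc, Ass1 and Nags, and lower in SI for Arg1 and Aldh18a1. Those of Otc and Ass1 were called in every alternative fit. That of Nags, at 1.46 ± 0.48 (edgeR adjusted p = 0.0336), was not called when SI crypts replicate 1, 2 or 3 was left out (1.49, 1.49 and 1.41), without LI crypts replicate 2 (0.99), or without LI monolayers replicate 1 or 2 (1.42 and 1.55). That of Arg1, at -1.17 ± 0.41 (edgeR adjusted p = 0.0288), was not called without SI crypts replicate 1 or 3 (-1.06 and -1.11), SI monolayers replicate 1 or 3 (-1.06 and -0.94), LI crypts replicate 1 or 3 (-1.04 and -0.99) or LI monolayers replicate 1 or 2 (-1.07 and -0.94). That of Aldh18a1 was just under the fold limit without SI monolayers replicate 2 (-0.98) or LI monolayers replicate 2 (-0.99). As a result 3 genes were called without SI crypts replicate 1 or 3 and 2 without LI monolayers replicate 2.

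Between freshly isolated crypts, 6 of the 9 genes were higher in SI and 1, Ass1, was lower, where 22.7% of all tested genes were called, 11.6% higher in SI and 11.1% lower. The median log2 fold change of SI against LI was 2.93 over the 9 genes and 0.06 over all tested genes, and 7 of the 9 genes did not overlap between the groups, as did 58.8% of all tested genes. Cps1 was 71.7-fold higher in SI crypts (log2 6.16 ± 0.41, edgeR adjusted p = 1.79e-06) and Arg2 61.8-fold (5.95 ± 0.28, edgeR adjusted p = 1.11e-07). Nags was 12.2-fold (3.61 ± 0.31) and Otc 11.4-fold (3.51 ± 0.22) higher. Oat (2.93 ± 0.06) and Aldh18a1 (2.51 ± 0.07) differed less, and their errors were the smallest among the 6 higher genes. Ass1 was 4.93-fold lower in SI crypts (-2.30 ± 0.13, edgeR adjusted p = 5.11e-09). Arg1 differed by 0.46 ± 0.28 (95% interval -0.09 to 1.02, edgeR adjusted p = 0.185) and Odc1 by -0.04 ± 0.05 (95% interval -0.14 to 0.07, edgeR adjusted p = 0.603).

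Between monolayers, 6 genes were higher in SI and none was called lower, where 21.2% of all tested genes were called, 12.4% higher and 8.88% lower. The 9 genes all had groups that did not overlap, as did 62.3% of all tested genes, and their median log2 fold change was 2.63 against 0.02 over all tested genes. Otc was 78.8-fold (log2 6.30 ± 0.28, edgeR adjusted p = 5.49e-08) and Cps1 73.7-fold (6.20 ± 0.42, edgeR adjusted p = 2.16e-06) higher in SI monolayers. Nags was higher by 5.08 ± 0.37, Arg2 by 4.76 ± 0.32, Oat by 2.63 ± 0.06 and Aldh18a1 by 1.39 ± 0.07 on the log2 scale. Odc1 was 1.35-fold lower in SI monolayers (-0.43 ± 0.05, edgeR adjusted p = 3.41e-06) and Ass1 1.29-fold lower (-0.37 ± 0.13, edgeR adjusted p = 0.0291), both under the fold limit. Arg1 differed by -0.70 ± 0.30 (95% interval -1.29 to -0.12, edgeR adjusted p = 0.0595).

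The low LI monolayer values were set beside genes of Paneth cells, secretory cells that the normal large intestine largely lacks. As a share of the SI monolayer mean, Cps1 stood in the LI monolayer libraries at 0.685%, 1.94% and 1.56% and Otc at 0.491%, 1.78% and 1.67%. The 8 Paneth genes had medians of 0.897%, 1.26% and 1.18% in the same libraries, with gene means of 0.813% to 3.79%. Replicate 1 was lowest for the Paneth median and for 7 of the 9 genes, all but Ass1 and Arg1, including Oat, Aldh18a1 and Odc1. Arg2 stood at 2.39%, 5.34% and 3.71% and Nags at 2.39%, 2.92% and 3.74%, while Oat, at 15.7% to 16.8%, and Aldh18a1, at 37.4% to 40.03%, lay well above the Paneth range. In LI crypts Cps1 stood at 1.82%, 0.896% and 1.59% of the SI crypt mean and Otc at 8.06%, 10.5% and 8.62%, beside Paneth medians of 1.07%, 0.946% and 0.411%. The means of single Paneth genes ran there from 0.312% to 67.5%, with Ang4 at 25.0% and Pla2g2a highest, so that Otc lay within their range. Whether LI monolayer libraries held RNA from SI, and its part in the Cps1, Otc, Arg2 and Nags values, was not tested.

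**Figure D3:**
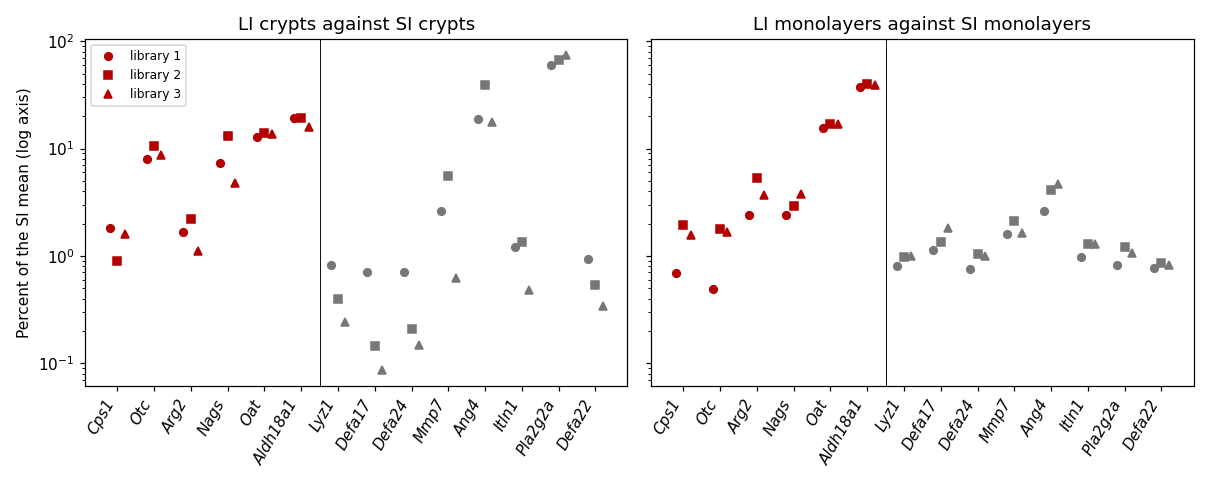
Level of the 6 mitochondrial genes (red) and of the 8 Paneth genes (grey) in each LI library as a percent of the mean of the matching SI group (log axis), crypts on the left and monolayers on the right. In LI monolayers Cps1 and Otc lie below every Paneth gene in replicate 1 (0.685% and 0.491%, against 0.749% for the lowest, Defa24) and among them in the others (1.56% to 1.94%), and Oat and Aldh18a1 lie above them, at 15.7% and more.

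Markers of absorptive cells differed between the regions, and most enterocyte genes fell in SI culture and most colonocyte genes in LI culture. The 10 enterocyte genes were all called higher in SI crypts than in LI crypts, as were 11.6% of all tested genes. In SI monolayers, where 16.4% of all tested genes were called lower and 9.71% higher, 6 of the 10 fell and none rose. Their summed counts were 1080990 to 1708360 in SI crypts, 367527 to 383274 in SI monolayers, 26962 to 41004 in LI crypts and 12193 to 18161 in LI monolayers. In LI culture 2 of the 10 were called, beside 38.0% of all tested genes. These 2, Slc5a1 (from a mean of 13729 to 2442) and Fabp2 (15132 to 2688), fell and carried the lower sum, while the median log2 fold change of the 10 was 0.67. Of the 8 colonocyte genes 7 fell in LI monolayers, where 23.5% of all tested genes were called lower. The 8 summed to 287118 to 457020 in LI crypts and 55375 to 58183 in LI monolayers, the groups in which Ass1 stood at 3894 to 5384 and at 996 to 1131. No gene of the enterocyte, colonocyte or Paneth lists was at 0 in a group. The SI crypt libraries differed in their Paneth sum, from 331691 to 1589030, while the 9 genes differed far less among those libraries. Mitochondrially encoded genes took 4.56% to 9.16% of counts in SI crypts, 0.472% to 0.559% in SI monolayers, 2.25% to 2.59% in LI crypts and 0.704% to 0.750% in LI monolayers. The part of these markers in the falls of the mitochondrial enzymes and of Ass1 was not tested.

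Levels were compared between genes only per kilobase of exon, as CPM per kilobase (mean ± SD, n = 3, exon lengths from GENCODE vM21). In SI crypts Oat led at 451 ± 34.0, followed by Cps1 at 248 ± 16.98, Arg2 at 166 ± 32.9 and Aldh18a1 at 79.1 ± 5.68. Odc1 (55.6 ± 3.01), Otc (46.4 ± 2.16) and Nags (24.7 ± 1.72) came next, above Ass1 at 5.43 ± 0.794 and Arg1 at 0.758 ± 0.143. The genes of citrulline formation thus all stood above Ass1 in SI crypts.
In SI monolayers Oat still led at 153 ± 2.09, and Odc1 came second at 86.0 ± 3.53. Aldh18a1 (68.1 ± 2.07) and Cps1 (66.7 ± 0.939) did not differ beyond their spread, and Arg2 (16.8 ± 0.419) lay just above Otc (15.5 ± 0.787). Nags stood at 9.51 ± 0.348, Ass1 at 5.09 ± 0.382 and Arg1 at 0.289 ± 0.0519. In LI crypts Oat (59.3 ± 3.15) and Odc1 (57.0 ± 0.732) were level within their spread, and Ass1 came next at 26.8 ± 5.06. Aldh18a1 followed at 13.9 ± 1.37, and Otc (4.08 ± 0.578), Cps1 (3.46 ± 1.15), Arg2 (2.68 ± 0.883) and Nags (2.02 ± 1.03) each lay within the spread of their neighbour, with Arg1 last at 0.549 ± 0.210. In LI monolayers Odc1 led alone at 116 ± 4.15, above Aldh18a1 (25.9 ± 0.718) and Oat (24.6 ± 0.804), and Ass1 stood at 6.57 ± 0.420. The other 5 genes were all under 1 CPM per kilobase, from Cps1 at 0.910 ± 0.416 to Otc at 0.199 ± 0.108.

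**Figure D4:**
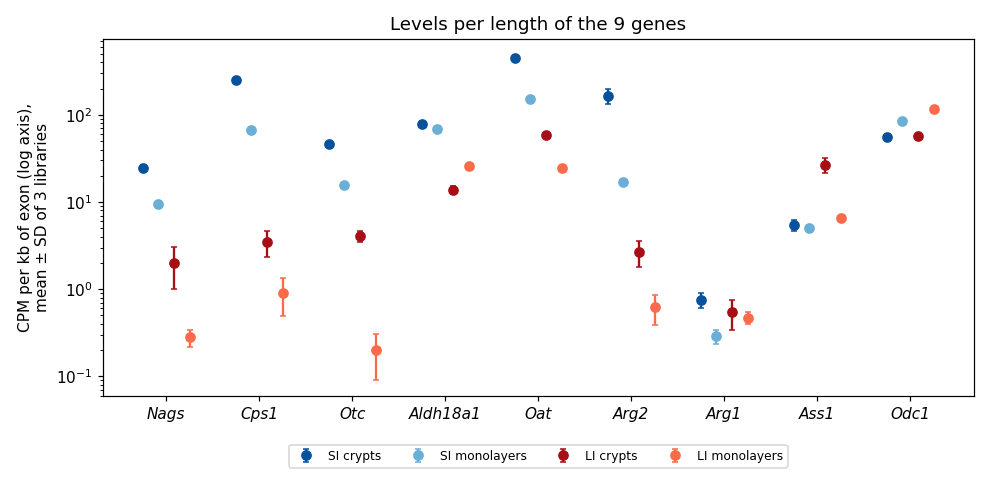
Mean CPM per kilobase of exon (log axis) of the 9 genes in the 4 groups, with the SD of 3 libraries. Oat leads in SI crypts at 451, and Odc1 leads in LI monolayers at 116, where the other 8 genes stand at 25.9 or less.

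The genes around the 9 were taken from a list of 54, of which 53 were tested (Slc25a2, with 18 counts in all, was not). In SI culture 21 were called, 13 higher and 8 lower, where 26.1% of all tested genes were called, and in LI culture 29 were called, 11 higher and 18 lower, where 38.0% of all tested genes were. Between crypts 14 were higher and 10 lower in SI (22.7% of all tested genes called), and between monolayers 16 were higher and 5 lower (21.2%). In all, 42 of the 53 were called in 1 or more of the 5 comparisons, as were 53.4% of all tested genes. Their median log2 fold changes were 0.14 in SI culture and -0.25 in LI culture, against -0.05 in both over all tested genes.

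Downstream of Odc1, 4 of the 6 genes from ornithine to the polyamines were called higher in culture in both regions and none was called lower. Of all tested genes, 9.71% were called higher in SI culture and 14.5% in LI culture. Under the fold limit, Agmat was lower in SI culture (log2 -0.48 ± 0.13) and Sms was higher in both regions. Srm, spermidine synthase, stood at 1901, 1801 and 1849.6 normalized counts in SI crypts and 5755, 7357 and 7336 in SI monolayers, a rise of 1.92 ± 0.11 on the log2 scale (edgeR adjusted p = 3.33e-09). In LI it went from 1744, 1443 and 1782 to 6988, 7675 and 8427, a rise of 2.26 ± 0.11 (edgeR adjusted p = 3.13e-10), so that monolayers lay above crypts without overlap in both regions. Amd1, whose product makes the aminopropyl donor, rose by 1.35 ± 0.07 in SI and 1.76 ± 0.07 in LI, and its near-identical copy Amd2, between which reads may have been split, by 1.27 ± 0.27 and 1.5 ± 0.27. Mtap, which salvages the methylthioadenosine left by these reactions, rose by 2.25 ± 0.09 and 2.99 ± 0.10. Srm, Amd1, Amd2 and Mtap were given values after these had been seen. For none of the 6 genes was a difference in the culture change between regions called, and Agmat, an enzyme of the agmatinase family, was the 1 gene of the group called between SI and LI, higher in SI.

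Genes of polyamine breakdown moved in both directions. Smox, spermine oxidase, rose by 2.26 ± 0.10 in SI and 1.64 ± 0.09 in LI, and Sat1, the inducible acetyltransferase, rose in both. Aoc1, a diamine oxidase that degrades putrescine, fell by 3.08 ± 0.14 and 2.59 ± 0.14, and Sat2 by 1.15 ± 0.29 in SI (log2 fold change -0.99 without SI crypts replicate 1, under the limit), while in LI Sat2 fell by 3.31 ± 0.33. Paox rose in SI alone among the calls, by 1.22 ± 0.06, and its culture change differed between regions by 1.78 ± 0.09. Of the antizymes and their inhibitors, which control Odc1 protein, Azin2 fell in both regions and Oaz2 in LI, while Oaz3, at 11.9 to 14.3 normalized counts in LI crypts, had 0 counts in the LI monolayers, where 3 counts correspond to 0.0432 to 0.0508 CPM. Among 4 transport genes none was called in SI culture, and in LI Slc3a2 rose by 1.42 ± 0.11 while Slc18b1 fell by 2.22 ± 0.07 and Atp13a2 fell. Of the 4 genes of hypusine formation, which uses spermidine to modify the factor eIF5A, Eif5a2 rose in LI by 2.65 ± 0.32 and the others were not called. Eif5a2 was low, at 18.7 to 32.0 normalized counts in LI crypts, where Eif5a had a mean of 54148.

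Around citrulline and arginine, Asl, the partner of Ass1, was called in none of the 5 comparisons. Nos2, the inducible nitric oxide synthase, which turns arginine into citrulline, moved in opposite directions, from 536, 1299.9 and 877 to 8345, 8671 and 9064 normalized counts in SI and from 3069, 2580.3 and 1839.9 to 959, 935 and 921 in LI. The groups did not overlap in either region, and the changes were 3.30 ± 0.30 and -1.36 ± 0.28 on the log2 scale. Ddah1, which hydrolyses methylated arginine, rose by 2.73 ± 0.10 and 1.94 ± 0.09. Gatm, which draws arginine into creatine synthesis, fell by 3.37 ± 0.18 in LI, and Gamt, which completes creatine, fell by 2.31 ± 0.23. Slc25a15, the mitochondrial ornithine carrier, was higher in SI than in LI by 2.90 ± 0.08 in crypts and 2.52 ± 0.08 in monolayers and fell by 1.09 ± 0.07 in SI culture. In these 3 comparisons it moved in the direction of Otc, which works in the mitochondrial matrix. In LI culture Slc25a15 went from a mean of 2146 to 1278 and was not called, where Otc fell 20.7-fold. The difference in culture change between regions was called for Otc and not for Slc25a15.

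Of the 15 genes of proline, glutamine and glutamate, 7 were called in SI culture (3 higher, 4 lower) and 7 in LI culture (2 higher, 5 lower), beside 26.1% and 38.0% of all tested genes. Those that break proline down to P5C and on to glutamate fell in both regions, Prodh by 3.05 ± 0.12 in SI and Aldh4a1 by 3.48 ± 0.20 in SI and 1.43 ± 0.18 in LI. The fall of Prodh in LI was at the limit, at -1.0 ± 0.11, and was not called without LI crypts replicate 1 or 2 (-0.94 and -0.95) or LI monolayers replicate 1 (-0.99). Pycr1, which makes proline from P5C, rose by 1.58 ± 0.15 in SI, and Pycr3 fell by 1.11 ± 0.07 and 1.95 ± 0.07. Glul, which makes glutamine, fell by 1.95 ± 0.08 in LI. Glul was also lower in SI than in LI crypts by 3.53 ± 0.09. Gpt fell in both regions, by 2.83 ± 0.22 and 3.65 ± 0.25, and Gpt2 rose by 1.75 ± 0.11 in SI.

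**Figure D5:**
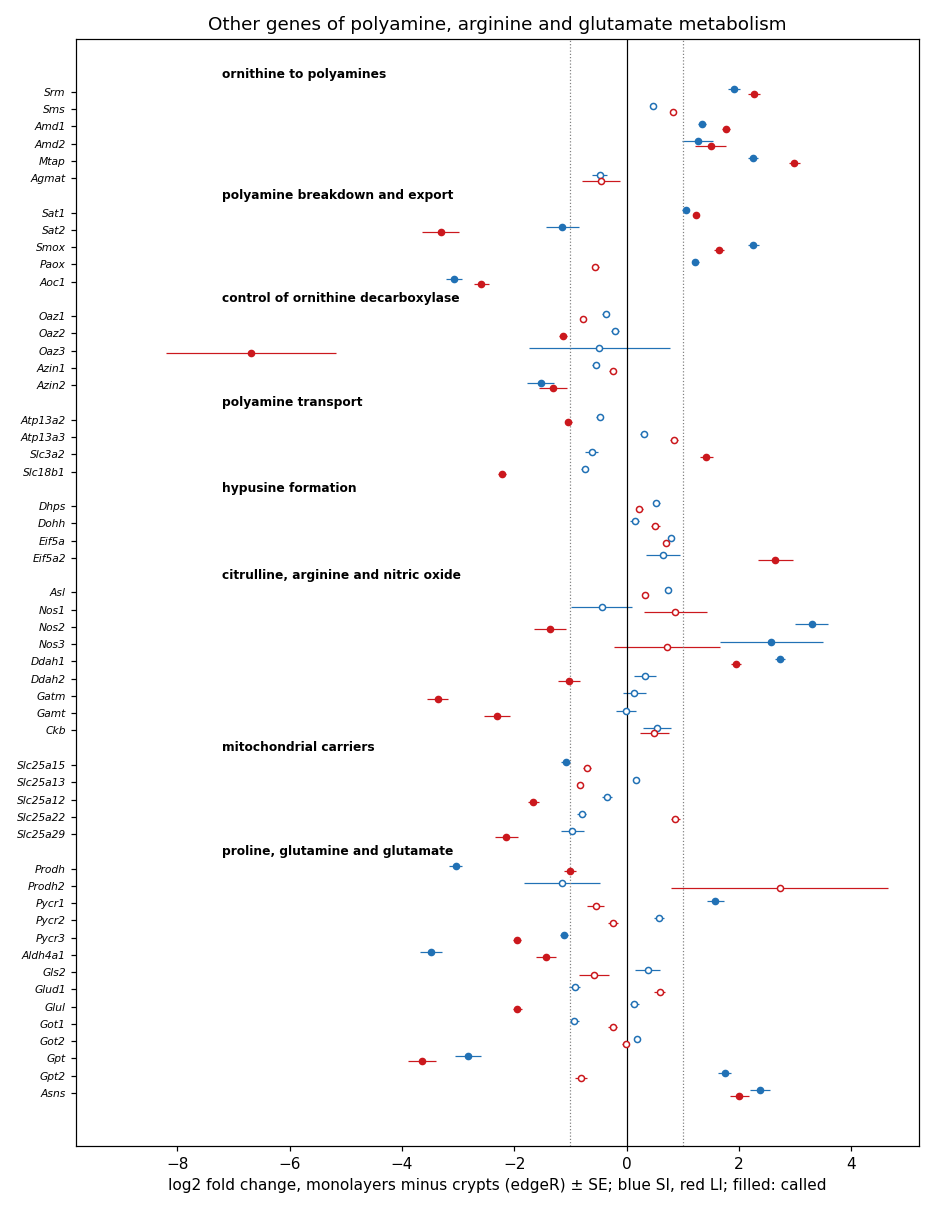
Log2 fold change of the further genes reported here in monolayers against crypts, with standard errors, in SI (blue) and LI (red), with filled points for called changes and dotted lines at 1 in size, grouped by their role. Srm, Amd1, Amd2 and Mtap lie to the right in both regions, Aoc1 and Gpt lie to the left in both, and Nos2 lies at 3.30 in SI and at -1.36 in LI.

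Genes whose log2 CPM followed each of the 9 most closely over the 12 libraries were found among 9211 genes with at least 10 CPM on average, as a description in which the 12 points fall into 4 groups. Cps1 was most like Barx2 (Pearson r = 0.996) and 2010106E10Rik (0.995), Otc like Cd302 (0.990) and Rcbtb1 (0.989), and Nags like Nectin1 (0.993) and Far2 (0.993). Arg2 was most like Prlr (0.997) and Pdxk (0.994) and Oat like Xkr9 (0.995) and Pdxk (0.994), so that Pdxk stood near both. Aldh18a1 was most like Pcyt1a (0.992) and Tm4sf5 (0.991), Odc1 like Ankrd13b (0.995) and Dnajb6 (0.995), and Ass1 like St3gal6 (0.996) and Scamp1 (0.993). Arg1 had the lowest values, with Mir22hg at 0.905 and mt-Rnr1 at 0.880.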

How the data were processed

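RNA from 3 crypt and 3 monolayer samples of each region was sequenced as paired-end Illumina HiSeq reads. Per the labels and methods, the authors aligned reads to GRCm38 with STAR 2.7.9a and counted them on GENCODE genes with featureCounts 2.0.2. The authors deposited raw counts and a normalized signal, the counts divided by DESeq2 size factors (0.850 to 1.12; DESeq2 version given as 3.13). Low counts were mostly even (73.4% to 77.4% of counts from 1 to 20), so both mates of a pair may have been counted. Strand use is not given in the sources used here.

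Of 55487 gene IDs 55141 were named, and 23186 genes had no count. Counts were tested with edgeR 4.0.16 (filterByExpr, TMM, robust glmQLFit) in 1 model of 4 group means, and the interaction is the SI change minus the LI change. Standard errors are the log2 fold change over the root of F. Positions and exon lengths are from GENCODE vM21 (the authors used a later release), promoters from RefSeq. Named were the 9 genes, list genes called in 3 or more comparisons with values, and for each of the 9 the 2 most similar genes. Of these, 1 list gene is in the counts and is not reported here. The 9 genes and all lists were chosen with earlier results of these data known. Alternatives were upper quartile scaling, DESeq2 1.42.0, other filters, no minimum fold change, a replicate block, fits of only the groups compared, each library left out and, chosen after seeing the data, halved counts. The scripts were tested on simulated data.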

Additional observations from a re-analysis of the deposited data

Results flagged for a closer look

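The change in culture differed between SI and LI by the test of the difference itself (edgeR, SI change minus LI change, log2 scale) for 5 of the 9 genes. It was 2.79 for Otc, 1.93 for Ass1 and 1.46 for Nags, which fell less or not at all in SI, and -1.17 for Arg1 and -1.12 for Aldh18a1. The calls of Arg1, Nags and Aldh18a1 depended on single libraries.

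Among the polyamine genes that are called in 3 or more comparisons, the difference was 2.17 for Sat2, 1.78 for Paox, 1.48 for Slc18b1, -2.05 for Slc3a2 and -2.0 for Eif5a2. Oaz3, at 6.20, had 0 counts in all 3 LI monolayer libraries and normalized counts of at most 4.70 in the SI libraries, so this size depends on the prior count and is no bound, and it was called in 2 of 12 fits with 1 library left out. Among genes of arginine use it was 4.66 for Nos2, which rose in SI and fell in LI, 3.51 for Gatm and 2.30 for Gamt. Among carriers it was 1.31 for Slc25a12 and 1.18 for Slc25a29. Among genes of proline, glutamine and glutamate it was 2.13 for Pycr1, 2.08 for Glul and 2.56 for Gpt2, and -2.04 for Prodh and -2.05 for Aldh4a1.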

How the results depend on the processing

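Over all alternatives the changes of the 9 genes kept their direction and their side of the limits in 848 values, passed the limits only in the alternative in 11, lost the call in 26 and reversed in 6. The 6 are of uncalled changes. Of the 11, those of the Arg2 interaction passed both limits in another fit. The others arose with no minimum fold change, which keeps the estimate and only drops the fold limit. With 1 library left out, Ass1 in SI culture was -0.19 to 0.026 (highest without SI crypts replicate 3), Arg1 in LI culture -0.41 to 0.14 (highest without LI crypts replicate 2), and the Cps1 interaction -0.18 to 0.45, at -0.01 without SI crypts replicate 2, -0.15 and -0.05 without LI crypts replicate 1 or 3 and -0.18 without LI monolayers replicate 1. With 1 library left out, the number of the 9 genes called in the interaction was 2 to 5, and in LI culture 6 to 7. With no minimum fold change, 42, 46, 40, 34 and 40 of the 53 list genes were called in SI culture, LI culture, crypts, monolayers and the interaction, in place of 21, 29, 24, 21 and 20. The share of all tested genes called without a minimum was not taken, so whether these counts exceed it is not known. Upper quartile scaling moved the median of all genes in LI culture from -0.05 to -0.17. The Nags interaction was not called without the filter on low counts (1.49, edgeR adjusted p = 0.0586), and that of Arg2 was called with DESeq2 (-1.21) and with at least 10 counts in every library (-1.17). The cause was not tested.

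Samples of the same replicate number did not deviate together (correlations of -0.05 to 0.06 over 18 pairs), so the numbers were not taken as pairs. With the replicate block, 6, 7, 7, 6 and 5 of the 9 genes were called in the 5 comparisons, the counts without it, with no call of the 9 genes changed, and 21, 28, 23, 20 and 19 list genes, with Prodh in LI culture (-0.999) not called. A fit of only the groups compared has no interaction. Depth limits the values of Otc, Arg2 and Nags in LI monolayers and of Arg1 throughout, which rest on the fewest counts, and both mates being counted would make the counting error larger than these counts imply. Among list genes it also limits Eif5a2 in LI crypts, and Sat2 and Gamt in LI monolayers (6.89 to 19.3 and 16.1 to 23.1 normalized counts). With halved counts no call of the 9 genes changed.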
